A study of Rattus norvegicus with 36 samples.

Results

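The highest dose of hexabromocyclododecane (HBCD), 641 mg/kg, was compared with corn oil vehicle in rat liver. HBCD is a brominated flame retardant. The comparison takes the 6 arrays labelled 641 mg/kg and the 6 labelled vehicle, 12 of the 36 arrays of the series, and all 31042 probe sets that are not array controls. All animals were male Sprague Dawley rats, 7 weeks old at the start, gavaged on 5 consecutive days with 5 ml/kg of corn oil, with or without HBCD. The left liver lobe was taken 1 day after the last dose, so both groups share the oil, the gavage and the diet. The other arrays, of rats given 64.1, 6.41, 0.641 or 0.06 mg/kg, entered the same fit and are named only where their levels stand beside a result. The labels number the replicates without saying that each is a separate rat, so each p-value speaks of the scatter among these arrays, and that scatter could be technical.

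The liver clears foreign compounds in stages. Oxidation and conjugation make them soluble, exporters remove them, and both stages draw on reduced glutathione, NADPH and sugar or sulfate donors made by ordinary metabolism. The same cells run the urea cycle, store and export lipid, make bile acids and plasma proteins, and divide rarely in the adult. Many of these tasks are split between hepatocytes near the portal vein and those near the central vein.

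Levels are log2 values per probe set, and a difference of 1 is a doubling. At 641 mg/kg, 511 of 31042 probe sets (1.65%) passed limma's test with a Benjamini-Hochberg adjusted p under 0.05, here termed called. Of these, 352 were higher (1.13%) and 159 lower (0.512%). Most of the changes were moderate. The median called rise was 1.27-fold, with 79 rises under 1.2-fold, 198 from 1.2 to under 1.5-fold, 57 from 1.5 to under 2-fold and 18 of 2-fold or more. The falls had a median of 1.28-fold, with 41, 97, 18 and 3 in the same classes. Among called probe sets, all 6 treated arrays lay beyond all 6 vehicle arrays in 216 of the rises and 89 of the falls. Over all probe sets, 1.06% had every 641 mg/kg array above every vehicle array and 0.654% had every one below. Of the called rises 44 carried no gene symbol and 14 carried several, and of the falls 32 and 1. These include the probe set with the largest rise and are not named further.

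**Figure D1:**
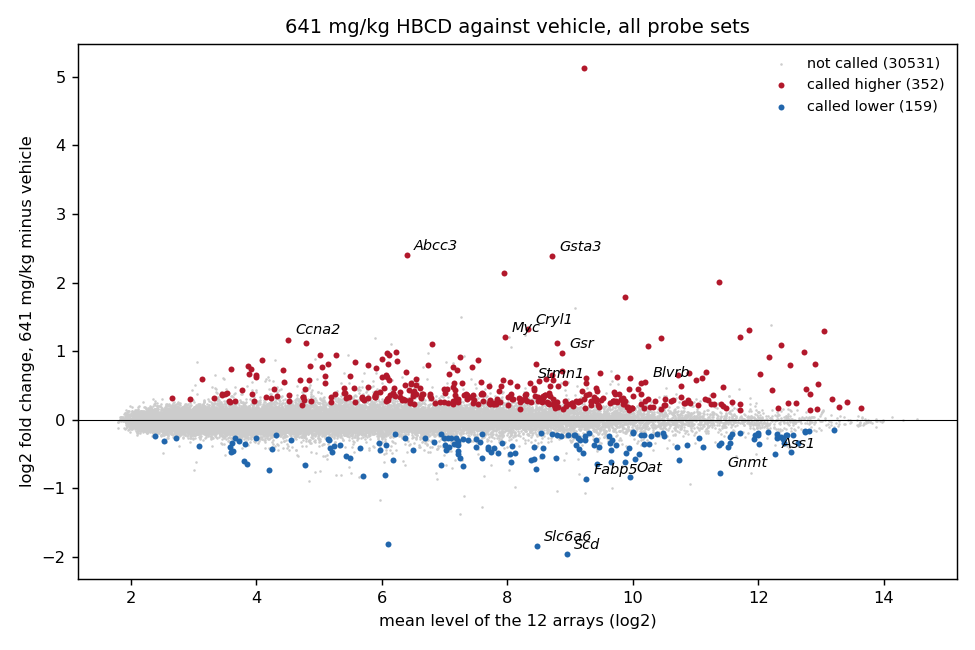
Each point is a probe set, with its mean log2 level over the 12 arrays across and its log2 fold change (641 mg/kg minus vehicle) up. Red points are the 352 probe sets called higher, blue points the 159 called lower and grey points the rest. Most coloured points lie within 1 log2 unit of 0. Few of them are dim: 40 of the called rises and 19 of the called falls had a mean under every array median.

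Across probe sets, the correlation between arrays of the same group was 0.994 to 0.997, and between vehicle and 641 mg/kg arrays 0.993 to 0.995. The array medians ran from 4.829 to 4.899. The 3-prime minus 5-prime difference of the control probe sets did not separate the groups for GAPDH (exact permutation p = 0.18) or actin (exact permutation p = 0.597). The 11 measured hepatocyte markers had high levels, with array means of 13.03 to 13.10 in vehicle and 12.92 to 12.99 at 641 mg/kg. None was called by limma, and 5 had an unadjusted p under 0.05. Over all 31042 probe sets, 3549 had an unadjusted p under 0.05, the share to hold beside such counts here and below. In bulk tissue, fewer cells of a type and less RNA per cell cannot be told apart.

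Each gene below stands for its brightest probe set with a single symbol. Of 14217 such genes 353 were called (2.48%), 248 higher (1.74%) and 105 lower (0.739%), and the median log2 fold change was -0.01. The members of 48 gene lists, described by counts and medians against these shares, follow by function. Lists and members were chosen with earlier results of these data known, so a higher share in a list is not independent support. Detoxification genes had 27 of 57 called higher and 2 lower, with a median of 0.29, and are left aside.

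**Figure D2:**
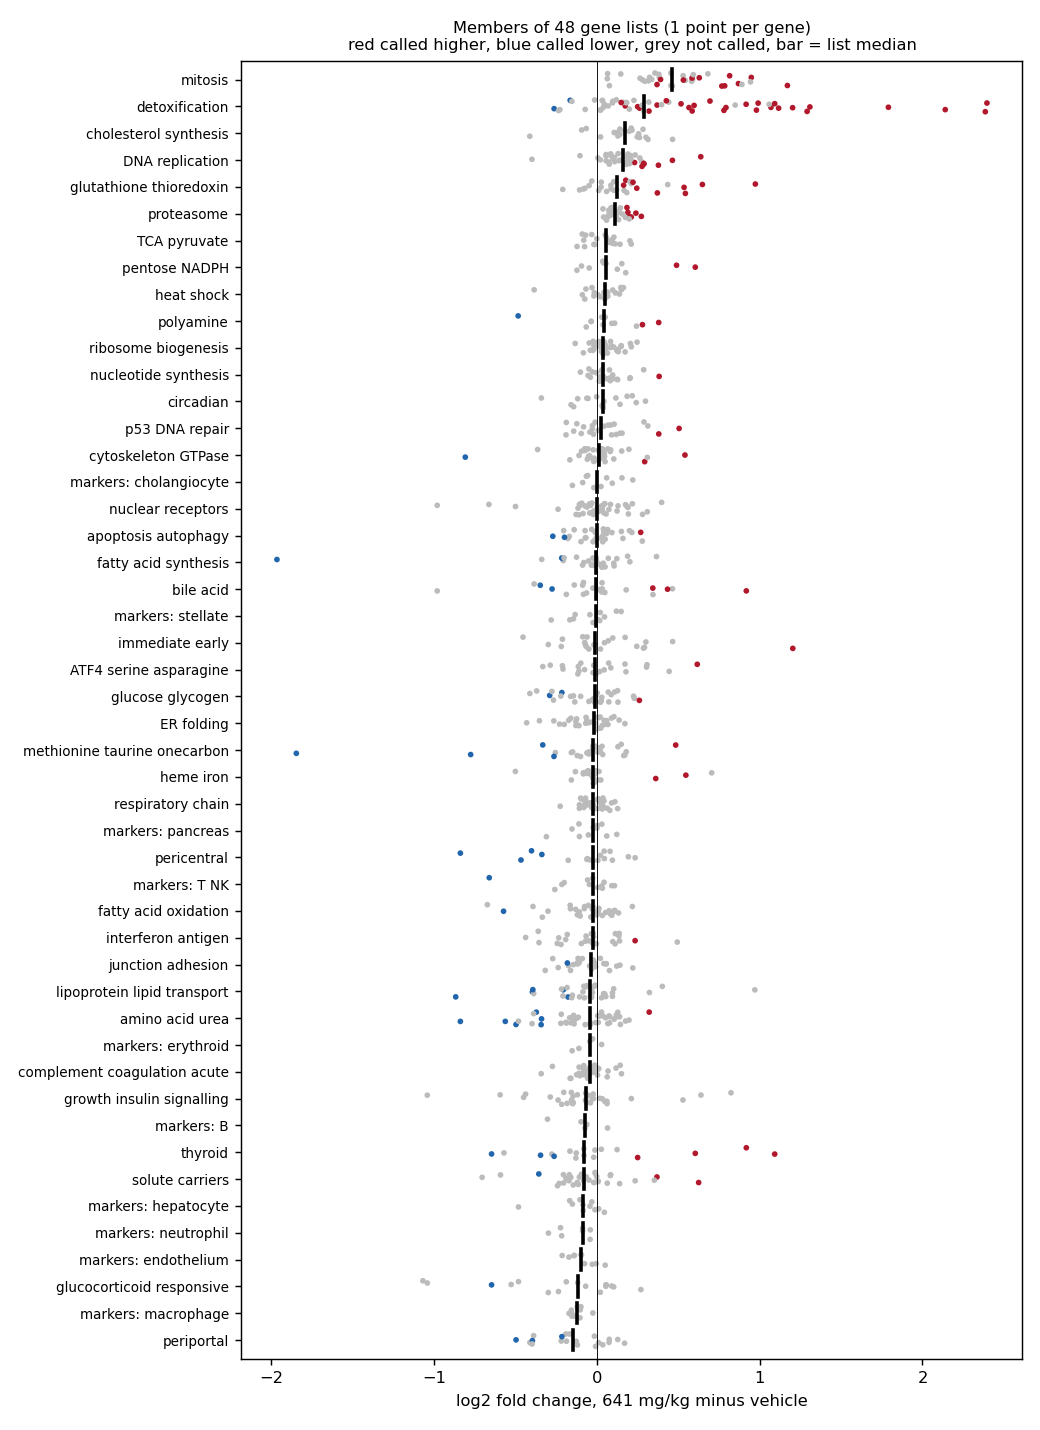
Each point is a gene, placed by its log2 fold change (641 mg/kg minus vehicle), in 1 line per list, ordered by the list median (black bar). Red is called higher, blue called lower, grey not called. The mitosis, detoxification, DNA replication, glutathione and proteasome lists stand at the top with cholesterol synthesis, whose members were not called, and the periportal list has the lowest median.

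Several glutathione and thioredoxin genes and suppliers of NADPH rose. In the glutathione and thioredoxin list 9 of 29 measured members were called higher and none lower, with a median of 0.12 and 23 members above 0. Gsr, the reductase that restores oxidised glutathione, read 8.08, 8.38 and 8.71 (lowest, median, highest) on the vehicle arrays and 9.26, 9.34 and 9.57 at 641 mg/kg. The groups did not overlap, and the rise was 1.96-fold (95% confidence interval 1.73 to 2.23; adjusted p = 2.39e-09). Gclm and Gclc, the modifier and catalytic subunits of the enzyme that starts glutathione synthesis, rose 1.57-fold and 1.45-fold (adjusted p = 2.6e-06 and 1.78e-06). Srxn1, which repairs overoxidised peroxiredoxins, rose 1.46-fold by its brighter probe set (adjusted p = 2.12e-05). Thioredoxin (Txn1) rose 1.19-fold and its reductase Txnrd1 1.29-fold, the latter call being lost when only the 2 groups were fitted (adjusted p = 0.0654). Smaller rises were those of mitochondrial superoxide dismutase Sod2 (1.17-fold), Prdx3 (1.13-fold) and Prdx2 (1.12-fold). The Prdx3 call was lost without vehicle replicate 2, vehicle replicate 5 or 641 mg/kg replicate 2 (adjusted p up to 0.0673), and the Prdx2 call in 8 of the 12 fits that left out 1 array (up to 0.0878, without 641 mg/kg replicate 2).

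Pir, an iron-binding nuclear protein, read 6.81, 7.12 and 7.26 in vehicle and 7.62, 7.94 and 8.40 at 641 mg/kg, a rise of 1.84-fold with no overlap (1.59 to 2.13; adjusted p = 5.04e-07). Transketolase (Tkt), of the non-oxidative pentose phosphate pathway, read 10.31, 10.56 and 10.63 against 10.81, 11.05 and 11.15, with no overlap. Its rise was 1.40-fold (1.29 to 1.53; adjusted p = 1.78e-06). Me1, the cytosolic malic enzyme that makes NADPH, rose 1.52-fold (adjusted p = 0.0151). That call was lost without vehicle replicate 2, vehicle replicate 5 or 641 mg/kg replicate 2 (adjusted p up to 0.0659). These were the called members of 11 in the pentose phosphate and NADPH list.

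Haem and iron genes gave 2 rises among 22 measured members, and 16 members lay below 0. Blvrb, a biliverdin and flavin reductase, read 9.86, 9.88 and 10.02 in vehicle and 10.36, 10.48 and 10.58 at 641 mg/kg. No arrays overlapped, and the rise was 1.46-fold (1.36 to 1.58; adjusted p = 7.97e-09). Hfe, a regulator of iron sensing in hepatocytes, rose 1.29-fold (adjusted p = 9.74e-05). Of 27 nucleotide genes 1 was called. It was Hprt1, which salvages purine bases and rose 1.30-fold (1.2 to 1.42; adjusted p = 8.99e-05). Outside that list the guanine deaminase Gda, picked after its values were seen, rose 1.36-fold (adjusted p = 2.93e-04). Aldh1l1, a folate enzyme that releases carbon dioxide and NADPH, rose 1.40-fold (adjusted p = 0.00406), a call lost when only the 2 groups were fitted (0.0755).

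Anion transporters moved both ways. Slc17a3, an organic anion and urate transporter, read 9.31, 9.41 and 9.57 in vehicle and 9.77, 10.10 and 10.25 at 641 mg/kg, apart on every array. It rose 1.54-fold (1.38 to 1.73; adjusted p = 4.29e-06), and its relative Slc17a1 rose 1.29-fold (adjusted p = 0.00116). Slc22a8, an organic anion exchanger, was 1.28-fold lower (adjusted p = 0.00536). These were 3 of 35 measured solute carriers. Slc7a5, which carries large neutral amino acids and thyroid hormone, read 5.49, 5.69 and 5.99 against 6.05, 6.27 and 6.66, a rise of 1.53-fold (adjusted p = 0.00866), a call lost with the mean of the 0.06, 0.641 and 6.41 mg/kg groups in place of vehicle (0.0523). It was the only called member of 22 in the ATF4, serine and asparagine list, whose median was -0.01. Sord, the sorbitol dehydrogenase, rose 1.2-fold (adjusted p = 0.00366).

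Several subunits of the proteasome, which degrades tagged proteins, rose slightly. Of 31 measured members 6 were called higher and none lower, and all 31 had a log2 fold change above 0, with a median of 0.11. Psmb3, a core subunit, read 9.91, 10.07 and 10.19 in vehicle and 10.20, 10.34 and 10.39 at 641 mg/kg, with the lowest treated array just above the highest vehicle array. The rise was 1.21-fold (1.11 to 1.31; adjusted p = 0.00823). The other calls were Psmd14 (1.18-fold), Psmb7 (1.16-fold), Psmb4 (1.15-fold), Psma1 (1.14-fold) and Psmd8 (1.14-fold). The activator subunit Psme1, in the interferon and antigen list, rose 1.18-fold with no overlap (adjusted p = 0.00109), and no other of the 27 members of that list was called. Leaving out 1 array at a time kept the calls of Psmb3 and Psme1 in all 12 fits, but that of Psme1 was lost with the mean of its probe sets (0.834). The Psmb4 call was lost without vehicle replicate 4, vehicle replicate 5 or 641 mg/kg replicate 1 (adjusted p up to 0.0756). Those of Psma1, Psmb7, Psmd8 and Psmd14 were lost in 6, 6, 8 and 9 of the fits (adjusted p up to 0.103, 0.1, 0.0829 and 0.108).

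Part of the measured genes of cell division rose at 641 mg/kg. In the mitosis list 11 of 36 measured members were called higher, none lower, and all 36 lay above 0, with a median of 0.46. In the DNA replication list 7 of 34 were called higher and none lower, with a median of 0.16 and 32 above 0. Averaged over the 36 mitosis genes, array levels ran from 4.80 to 5.48 in vehicle and from 5.40 to 5.72 at 641 mg/kg, so the ranges overlapped. Of these mitosis genes 14 had a mean under every array median, where probe set signals are dim.

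Stmn1, which destabilises microtubules, read 7.82, 8.15 and 8.29 in vehicle and 8.46, 8.64 and 8.78 at 641 mg/kg, with no overlap, a rise of 1.45-fold (1.26 to 1.66; adjusted p = 0.00147). Mcm4, a subunit of the replicative helicase, read 6.06, 6.42 and 6.58 against 6.78, 6.84 and 6.87. Its 6 treated arrays lay closer together than the vehicle arrays and all above them, a rise of 1.38-fold (1.23 to 1.54; adjusted p = 5.26e-04). Mcm6, of the same helicase, rose 1.56-fold (adjusted p = 0.00387), and Mcm2 1.22-fold (adjusted p = 0.0198). Pclaf, a partner of the sliding clamp PCNA, read 4.39, 4.78 and 5.13 against 5.30, 5.81 and 6.09, a rise of 1.92-fold with no overlap (adjusted p = 0.0116).

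Genes of the spindle, the kinetochore and cytokinesis were among the called rises. Spc24, a kinetochore subunit, read 5.33, 5.68 and 6.23 in vehicle and 6.34, 6.48 and 6.77 at 641 mg/kg, a rise of 1.76-fold (adjusted p = 0.00505). Cenpf, also of the kinetochore, rose 1.5-fold (adjusted p = 0.00673) and the kinase Melk 1.31-fold (adjusted p = 0.0089). Racgap1, of the cleavage furrow, read 4.36, 4.74 and 5.00 against 5.24, 5.54 and 5.81, 1.76-fold higher. Prc1, which bundles spindle microtubules, rose 1.55-fold (adjusted p = 0.0143). The kinase Cdk1, which drives entry into mitosis, read 5.09, 5.61 and 6.35 against 6.32, 6.45 and 6.99, and the ranges overlapped slightly. It rose 1.93-fold (adjusted p = 0.0465). Ccna2, a cyclin of replication and mitosis, rose 2.25-fold (adjusted p = 0.0225) from a dim level, a call lost in 5 of the 12 fits that left out 1 array (up to 0.0806). Checkpoint kinase Bub1 rose 1.83-fold, the kinase Pbk 1.72-fold, topoisomerase Top2a 1.70-fold and Bub1b 1.29-fold.

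These calls rested on different numbers of arrays. Those of Stmn1, Mcm4, Mcm6, Pclaf, Spc24, Cenpf and Melk held in all 12 fits that left out 1 array. Many of the called genes were dim. Only 6 of the 18 in the 2 lists had a mean of at least 6 in vehicle or at 641 mg/kg. Melk, Bub1, Bub1b and Uhrf1 read under every array median on all 12 arrays. Another reference, the mean of the 0.06, 0.641 and 6.41 mg/kg groups in place of vehicle, also ended calls. Of the 18 called genes of the 2 lists 7 lost theirs, and so did Pclaf, outside the lists (adjusted p = 0.15). The 7 were Dut (0.103), Gmnn (0.117), Uhrf1 (0.0767), Bub1 (0.129), Ccna2 (0.192), Cdk1 (0.116) and Top2a (0.222). The Prc1 call was lost without vehicle replicate 3 (adjusted p = 0.0535) and the Mcm2 call without 641 mg/kg replicate 1 or 2 (up to 0.0673). The Racgap1 call was lost without vehicle replicate 2 or 641 mg/kg replicate 2 or 4 (up to 0.0675) and with the mean of its probe sets (0.0812). The calls of Top2a and Bub1 were lost in 7 fits each, those of Pbk and Bub1b in 8 each and that of Cdk1 in 10 (adjusted p up to 0.114, 0.0987, 0.109, 0.107 and 0.131). The replication genes Pcna (1.17-fold), Dut (1.21-fold), Gmnn (1.22-fold) and Uhrf1 (1.30-fold) were called, and these calls were lost in 7, 8, 9 and 10 fits (adjusted p up to 0.0809, 0.0855, 0.145 and 0.13).

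**Figure D3:**
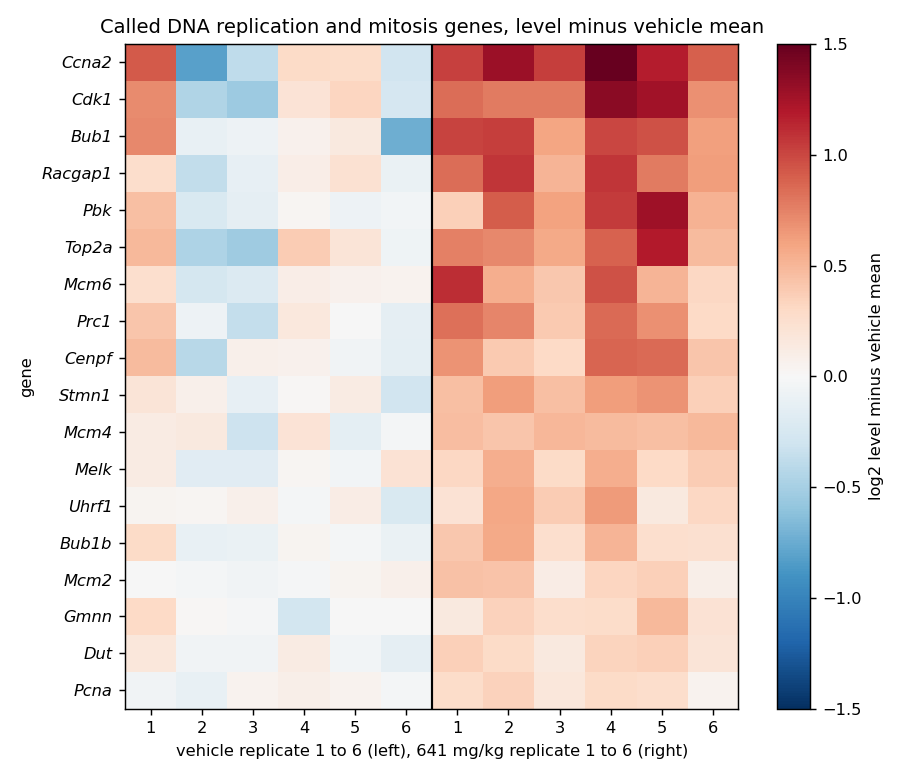
Rows are the 18 called genes of the DNA replication and mitosis lists and columns the 12 arrays, vehicle replicates 1 to 6 on the left and 641 mg/kg replicates 1 to 6 on the right. Colour is the log2 level minus the gene's vehicle mean. Averaged over the genes, vehicle replicate 1 lay 0.33 above the vehicle mean, while the 641 mg/kg arrays lay between 0.40 (replicate 6) and 0.76 (replicate 4) above it.

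Dividing cells are known to switch many such genes through short shared elements. The promoters of Cdk1, Prc1, Top2a and Mcm6, each with a match to the letters searched, are shown. Sequences are from RefSeq, build GRCr8, and hold the 250 bases before the annotated start, on the strand of the gene. Capitals mark the letters TTTGAA (the core of the cell cycle gene homology region), CCAAT (the CCAAT box) and TTTGGCGC (an E2F site), read on either strand and found separately, so the motifs may overlap. The regions are chr20:19265043-19265292 on the plus strand for Cdk1, chr1:143659231-143659480 on the plus strand for Prc1, chr10:84473094-84473343 on the minus strand for Top2a and chr13:42404353-42404602 on the minus strand for Mcm6.
Cdk1: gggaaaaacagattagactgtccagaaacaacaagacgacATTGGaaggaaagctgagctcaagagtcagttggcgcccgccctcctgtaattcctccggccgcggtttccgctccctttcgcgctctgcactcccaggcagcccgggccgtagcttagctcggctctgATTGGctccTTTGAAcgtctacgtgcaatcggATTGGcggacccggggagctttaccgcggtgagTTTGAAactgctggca
Prc1: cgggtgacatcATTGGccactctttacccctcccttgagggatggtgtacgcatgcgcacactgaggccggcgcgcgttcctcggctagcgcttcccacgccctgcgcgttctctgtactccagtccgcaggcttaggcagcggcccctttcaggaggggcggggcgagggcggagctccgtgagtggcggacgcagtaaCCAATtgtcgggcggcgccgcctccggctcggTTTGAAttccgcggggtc
Top2a: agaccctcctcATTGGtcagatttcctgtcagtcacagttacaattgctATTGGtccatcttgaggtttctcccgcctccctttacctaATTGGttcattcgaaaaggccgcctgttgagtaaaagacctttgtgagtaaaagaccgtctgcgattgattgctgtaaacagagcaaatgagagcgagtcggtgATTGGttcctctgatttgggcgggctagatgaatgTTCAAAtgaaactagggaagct
Mcm6: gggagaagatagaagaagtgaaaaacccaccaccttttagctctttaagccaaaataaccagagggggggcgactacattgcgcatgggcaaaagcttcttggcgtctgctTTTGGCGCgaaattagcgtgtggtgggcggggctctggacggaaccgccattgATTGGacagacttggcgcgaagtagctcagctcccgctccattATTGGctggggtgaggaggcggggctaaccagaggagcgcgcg
In Cdk1, Prc1 and Top2a the copy of TTTGAA nearest the start lay 10, 12 and 16 bases before it, and the nearest CCAAT 44, 45 and 52 bases before it. Of the 18 called replication and mitosis genes 14 had a promoter in the table. TTTGAA was in 4 of them (Mcm2, Cdk1, Prc1 and Top2a), against 10.9% of 11734 measured genes with a promoter, and CCAAT in 9 against 35.1%. The position of TTTGAA in Mcm2 is not given here. TTTGGCGC was in 2 (Mcm6 and Stmn1) against 0.639%. These are matches of letters and not measured binding.

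For the glutathione and thioredoxin genes the letters searched were TGACNNNGC, the core of the antioxidant response element, on either strand. They were in 2 of 8 called genes with a promoter (Gclm and Sod2), against 12.3% of all. The Gclm region, chr2:213031885-213032134 on the plus strand, is shown with the match in capitals, on the opposite strand and 163 bases before the start.
Gclm: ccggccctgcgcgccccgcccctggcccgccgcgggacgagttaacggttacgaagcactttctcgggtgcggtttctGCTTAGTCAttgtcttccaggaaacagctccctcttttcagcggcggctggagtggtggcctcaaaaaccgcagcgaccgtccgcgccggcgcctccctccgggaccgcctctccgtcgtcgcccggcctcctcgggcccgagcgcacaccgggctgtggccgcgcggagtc

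Several genes of amino acid breakdown fell. Of 44 genes of amino acid metabolism and the urea cycle 6 were called lower and 1 higher, with a median of -0.04. Prodh, the first enzyme of proline breakdown, read 8.81, 9.10 and 9.26 in vehicle and 8.34, 8.49 and 8.66 at 641 mg/kg. All treated arrays lay below all vehicle arrays, and the fall was 1.48-fold (1.29 to 1.68; adjusted p = 3.08e-04). Oat, which makes the same product from ornithine, was 1.79-fold lower (adjusted p = 0.00727). Ass1, the urea cycle enzyme that joins citrulline and aspartate, read 12.31, 12.56 and 12.63 against 11.86, 11.96 and 12.23, a fall of 1.41-fold with no overlap (1.26 to 1.57; adjusted p = 1.07e-04). Got1, the aspartate aminotransferase of the cytosol, was 1.29-fold lower (adjusted p = 0.00773), a call lost when only the 2 groups were fitted (0.053).

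Kynu, the kynureninase of tryptophan breakdown, was 1.26-fold lower (adjusted p = 0.00656), and Hao2, a peroxisomal hydroxyacid oxidase, 1.27-fold lower (adjusted p = 6.02e-04). Afmid, the formamidase that makes kynurenine in the same route, was the member called higher, 1.25-fold (adjusted p = 0.0378). The Afmid call was lost in 9 of the 12 fits that left out 1 array (up to 0.106, without vehicle replicate 3).

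In methionine, taurine and one-carbon metabolism 4 of 28 genes were called lower and Aldh1l1 higher. Slc6a6, the taurine transporter, was 3.59-fold lower (adjusted p = 2.91e-07) and Gnmt, the glycine methyltransferase, 1.71-fold lower (adjusted p = 1.26e-06). The others called lower were Cth and Pemt. Cth, the cystathionine lyase that makes cysteine, read 12.74, 12.79 and 12.87 in vehicle and 12.13, 12.53 and 12.68 at 641 mg/kg, 1.26-fold lower without overlap (adjusted p = 0.0089). Pemt, which methylates phosphatidylethanolamine to phosphatidylcholine, was 1.2-fold lower (adjusted p = 0.00386). When only the 2 groups were fitted both calls were lost (0.098 and 0.0579).

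Polyamine genes moved in opposite directions. Sat1, which acetylates spermidine and spermine for breakdown or export, read 9.99, 10.09 and 10.34 in vehicle and 9.39, 9.70 and 9.82 at 641 mg/kg. The groups did not overlap, and the fall was 1.40-fold (1.25 to 1.56; adjusted p = 2.72e-04). Sms, the spermine synthase, read 6.39, 6.46 and 6.58 against 6.66, 6.88 and 7.00, a rise of 1.30-fold with no overlap (adjusted p = 0.00102). Mtap, which recycles the by-product of that synthesis, rose 1.22-fold (adjusted p = 0.0192), a call lost without vehicle replicate 3 or 641 mg/kg replicate 2 (up to 0.0722). The other 9 of 12 members were not called.

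The called genes of 3 lipid lists were all lower. In the list of lipoproteins and lipid transport 5 of 35 genes were called lower, in fatty acid synthesis 2 of 27 and in fatty acid oxidation 1 of 34. Cpt1a, which commits fatty acids to the mitochondria, read 10.04, 10.36 and 10.64 in vehicle and 9.56, 9.73 and 9.99 at 641 mg/kg, with all treated arrays below. The fall was 1.49-fold (1.29 to 1.71; adjusted p = 5.58e-04). Elovl5, an elongase of polyunsaturated fatty acids, was 1.16-fold lower (adjusted p = 0.00772), a call lost when only the 2 groups were fitted (0.0984) and with the mean of its probe sets (0.119). Outside these lists lipid enzymes were also called higher, such as Acsm5, given below, and the monoglyceride lipase Mgll (1.41-fold, adjusted p = 0.0282), picked after its values were seen. The other Mgll probe sets were not called, with log2 fold changes of 0.33, 0.28 and -0.105, the last at a dim mean of 4.21. The Mgll call was not followed through the other fits. The Scd desaturase fell more, 3.9-fold (adjusted p = 6.01e-04), and its call was kept in all 12 fits that left out 1 array. Its vehicle arrays spread from 8.19 to 11.12, and the lowest of them lay within the treated range of 7.45 to 8.41.

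Fabp7, a fatty acid binding protein, was 1.31-fold lower (adjusted p = 0.00183), beside the fall of Fabp5. Apolipoprotein Apoa4 was 1.31-fold lower (adjusted p = 0.0487), hepatic lipase Lipc 1.15-fold (adjusted p = 0.0381) and Lcat, which esterifies cholesterol in plasma, 1.13-fold (adjusted p = 0.0369). Those 3 calls were lost in 10, 8 and 8 of the 12 fits (adjusted p up to 0.148, 0.143 and 0.098). Cholesterol synthesis had 18 of 21 members above 0 and a median of 0.17. None was called by limma, and 7 had an unadjusted p under 0.05. Cyp51, the lanosterol demethylase, had the smallest p of the list and stood at 1.24-fold higher (adjusted p = 0.148).

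Bile acid genes split into 3 rises and 2 falls among 22. Akr1d1, the steroid reductase that saturates the bile acid ring system, read 11.90, 12.01 and 12.13 in vehicle and 12.39, 12.44 and 12.46 at 641 mg/kg, a rise of 1.35-fold with no overlap (1.26 to 1.45; adjusted p = 1.91e-07). The uptake carriers Slco1a4 and Slco1a1 rose 1.89-fold and 1.27-fold (adjusted p = 5.03e-08 and 1.71e-05). Slc27a5, the ligase that activates bile acids before conjugation, read 12.10, 12.19 and 12.22 against 11.71, 11.79 and 11.97, a fall of 1.27-fold with no overlap (adjusted p = 0.00349). Amacr, a racemase of branched fatty acids and bile acid precursors, was 1.21-fold lower (adjusted p = 0.0431), and its call was lost in 8 fits (up to 0.131, without vehicle replicate 1). The bile acid sensor target Nr0b2 was 1.97-fold lower on average but not called (adjusted p = 0.0906).

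Genes of both ends of the liver lobule were called lower and none higher. Among 17 pericentral genes 4 were called: Cyp1a2, Oat, Glul and Gulo. Gulo, the last enzyme of vitamin C synthesis in rats, read 11.62, 11.71 and 11.80 in vehicle and 11.22, 11.38 and 11.59 at 641 mg/kg, a fall of 1.26-fold (1.16 to 1.37; adjusted p = 4.79e-04). Cyp1a2 was 1.38-fold lower (adjusted p = 6.42e-07). Glutamine synthetase Glul was 1.32-fold lower (adjusted p = 0.038), and its call was lost in 9 fits (up to 0.135, without 641 mg/kg replicate 2). Among 20 periportal genes 3 were called lower: Ass1, Apoa4 and Fbp1, the gluconeogenic bisphosphatase (1.16-fold, adjusted p = 0.0399, lost in 7 fits at up to 0.134). The periportal median was -0.15 and the pericentral median -0.02. Pyruvate carboxylase Pc, which feeds gluconeogenesis, was 1.22-fold lower (adjusted p = 0.0417), a call lost in 9 fits (up to 0.122).

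**Figure D4:**
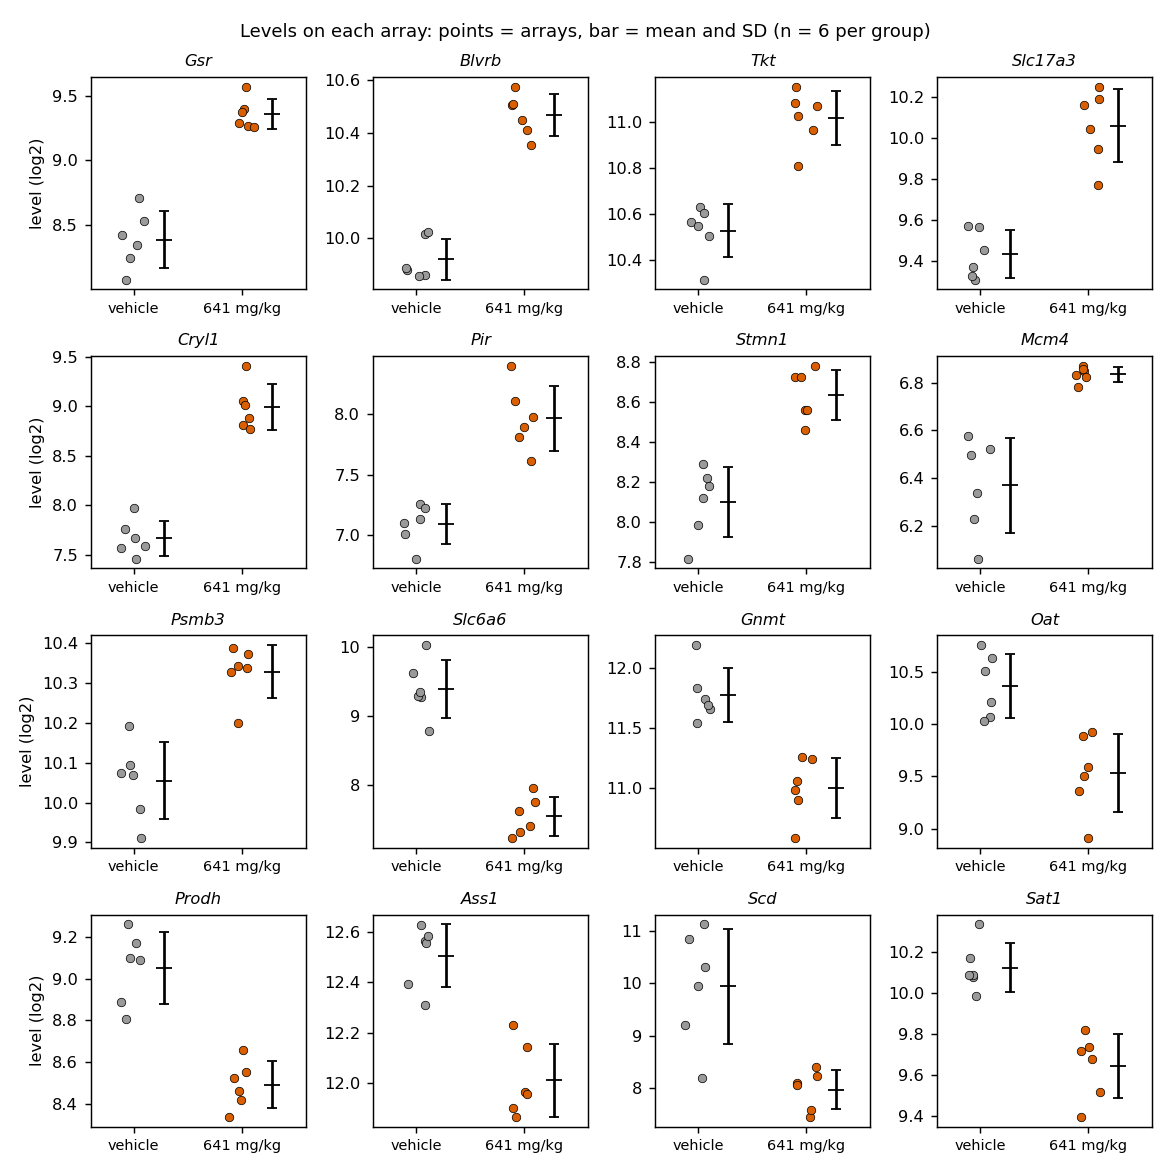
Each panel is a gene and each point an array, with the log2 level up, vehicle in grey on the left and 641 mg/kg in orange on the right. Bars give the mean and SD of 6 arrays, and each panel has its own axis that does not start at 0. In all panels but Scd every treated array lies beyond every vehicle array, upward in the first 9 panels and downward in the rest.

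Thyroid-related genes gave 4 rises and 3 falls among 18 measured. Crym, which binds thyroid hormone in the cytosol, was 1.27-fold lower (adjusted p = 0.02), a call lost without vehicle replicate 5 or 641 mg/kg replicate 4 (up to 0.0635). Sult1a1 was 1.2-fold lower (adjusted p = 0.0107) and Sult1b1 1.19-fold higher (adjusted p = 0.0064), both sulfotransferases that can act on the hormone. The remaining calls were Ugt2b1, Slco1a4 and Me1 higher and Klf9 lower. Klf9, a transcription factor that thyroid hormone and glucocorticoids induce, was 1.56-fold lower (adjusted p = 0.0327). Its call was lost in 8 of the 12 fits that left out 1 array (up to 0.0962), with the mean of the 0.06, 0.641 and 6.41 mg/kg groups in place of vehicle (0.136) and with the mean of its probe sets (0.112). The Sult1b1 call was lost when only the 2 groups were fitted (0.0602). In growth and insulin signalling limma called none of 34 genes, of which 8 had an unadjusted p under 0.05, and the smallest p was that of the growth hormone receptor Ghr, 1.16-fold lower (adjusted p = 0.0868).

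Genes of p53 and cell death were called in both directions. Of 24 p53 and repair genes 2 were called higher (8.33%, against 1.74% of all genes) and none lower. Of 33 apoptosis and autophagy genes 1 was called higher (3.03%) and 2 lower (6.06%, against 0.739% of all genes). At an unadjusted limma p under 0.05 there were 7 of 24 p53 and repair genes and 12 of 33 apoptosis and autophagy genes. Fas, a death receptor, read 5.97, 6.14 and 6.23 in vehicle and 6.38, 6.67 and 6.81 at 641 mg/kg by its brighter probe set, 1.42-fold higher with no overlap (adjusted p = 0.0127). The Fas call was lost with the mean of its probe sets (0.287). Mdm2, which limits p53, rose 1.30-fold (adjusted p = 0.0128), a call lost when only the 2 groups were fitted (0.139). The other 22 of the 24 measured p53 and repair genes were not called. Bmf, which promotes apoptosis, was 1.5-fold lower (adjusted p = 0.0177) and Bcl2l1, which blocks it, 1.21-fold lower (adjusted p = 0.0289). The Bmf call was lost without vehicle replicate 2, vehicle replicate 4 or 641 mg/kg replicate 2 (up to 0.0677), and the Bcl2l1 call in 9 fits (up to 0.101). Of the lysosomal proteases Ctsd rose 1.21-fold (adjusted p = 0.00734) and Ctsl was 1.15-fold lower (adjusted p = 0.0126), and both calls held in all 12 fits that left out 1 array. When only the 2 groups were fitted the Ctsl call was lost (0.134).

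Lists without a call covered ribosome biogenesis (35 genes), folding in the endoplasmic reticulum (32), chaperones (21), the respiratory chain (41), the citric acid cycle (21), nuclear receptors (43), the circadian clock (18) and plasma proteins of the acute phase, complement and coagulation (41). In that order, 4, 8, 2, 8, 3, 5, 3 and 10 members had an unadjusted p under 0.05 in limma, against 3549 of all 31042 probe sets. The members with the smallest p included P4hb, a disulfide isomerase (1.10-fold higher, adjusted p = 0.156), and Serpina3n, a protease inhibitor (1.21-fold lower, adjusted p = 0.0536). In the acute phase list 32 of 41 members lay below 0, with a median of -0.04. A limma test that missed the threshold does not show that these genes were equal in both groups.

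Among markers of other cells 1 call was made. It was Cd8a, 1 of 13 markers of T and NK cells, at 1.58-fold lower (adjusted p = 0.0176). The Cd8a call was lost without replicate 2 of vehicle or of 641 mg/kg (up to 0.0675) and with the mean of its probe sets (0.0701). Array means of the 13 markers ran from 4.23 to 4.42 in vehicle and 4.09 to 4.31 at 641 mg/kg, and 11 of these markers were under every array median. All 11 macrophage markers lay below 0 (median -0.12, array means 8.46 to 8.73 in vehicle and 8.28 to 8.58 at 641 mg/kg). This was not particular to macrophages. All 7 neutrophil markers, 9 of 10 of endothelium and 9 of 11 of hepatocytes lay below 0 too. For stellate cells it was 6 of 12, for bile duct 5 of 10, and over all genes 7524 of 14217. Markers of neutrophils (7), endothelium (10), stellate cells (12), bile duct (10), B cells (5), erythroid cells (5) and pancreas (11) had no call. At an unadjusted limma p under 0.05 there were 2 endothelial markers, 1 each of neutrophils, stellate cells, bile duct and pancreas, and none of macrophages, B cells and erythroid cells. The part of such cells in the falls above was not tested.

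Outside the lists, called rises included an enzyme of sugar acids, a receptor, a hydrolase, a protease and a matrix protein. Cryl1, a dehydrogenase of the uronate pathway, read 7.46, 7.63 and 7.97 in vehicle and 8.77, 8.95 and 9.41 at 641 mg/kg. It rose 2.50-fold with no overlap (2.15 to 2.91; adjusted p = 2.74e-10), and the call held in all 12 fits that left out 1 array. Myc, the called member of 23 immediate early genes and a transcription factor of growth, rose 2.30-fold with overlapping arrays (adjusted p = 0.0322), a call lost in 8 of those fits (up to 0.0933). Adgrg2, an adhesion receptor, read 4.94, 5.74 and 6.45 in vehicle and 6.24, 6.59 and 7.40 at 641 mg/kg, 1.99-fold higher with overlapping arrays (adjusted p = 0.0137). That call was lost without replicate 2 of vehicle or of 641 mg/kg (up to 0.0599). C8h11orf54, which encodes an ester hydrolase, rose 1.65-fold with no overlap (adjusted p = 6.59e-07). Fam111a, a protease of replicating cells, rose 1.67-fold from a dim level (adjusted p = 0.0119). Acsm5, a mitochondrial acyl-CoA synthetase, rose 1.71-fold (adjusted p = 0.0227, lost in 5 fits at up to 0.077), and Sbspon, a secreted matrix protein, 1.68-fold (adjusted p = 0.0132, lost without vehicle replicate 4 at 0.0503).

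On the lower side, Synrg, an adaptor of vesicle traffic, read 9.71, 10.03 and 10.17 in vehicle and 8.86, 9.38 and 9.69 at 641 mg/kg, 1.53-fold lower with no overlap (1.30 to 1.81; adjusted p = 0.00216). Eif4ebp3, a brake on cap-dependent translation, read 8.46, 8.60 and 9.09 against 7.98, 8.07 and 8.16, 1.5-fold lower with no overlap (adjusted p = 3.71e-04). Abhd2, a lipid hydrolase, was 1.49-fold lower (adjusted p = 0.00365) and Sidt1, a membrane protein of nucleic acid transport, 1.47-fold (adjusted p = 0.00828), the Sidt1 call being lost with the mean of the 0.06, 0.641 and 6.41 mg/kg groups in place of vehicle (0.0542). Cav2, a coat protein of caveolae, was 1.48-fold lower (adjusted p = 0.0225), a call lost without vehicle replicate 2 or 3 or 641 mg/kg replicate 2 (up to 0.0904).

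The smallest called changes were near 1.1-fold. The rises were those of Rnf128 and Cep170b (1.11-fold each), Akr1a1 (1.11-fold), Tmem134 (1.12-fold) and Pgrmc1 (1.12-fold), the last a haem-binding partner of P450 enzymes. The falls were those of Rnase4 (1.11-fold), Rarres2 (1.12-fold), Cyp2b3 (1.12-fold), Lcat and the adhesion protein Ceacam1 (1.13-fold each). Rarres2, the secreted chemerin, read 12.80, 12.88 and 12.96 in vehicle and 12.65, 12.74 and 12.81 at 641 mg/kg, and the ranges overlapped slightly. Each of these 10 calls was lost in at least 1 of the 12 fits, the Cyp2b3 call without 641 mg/kg replicate 5 alone (adjusted p = 0.0568).

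Many calls given above as lost without single arrays were also lost in another fit. When only the 2 groups were fitted, those of Prdx2, Prdx3, Me1, Mcm2, Pcna, Gmnn, Uhrf1, Dut, Psma1, Psmb4, Psmb7, Psmd8, Psmd14, Mtap, Apoa4, Lipc, Amacr, Fbp1, Pc, Glul, Bcl2l1, Adgrg2, Cav2 and Lmnb1 were lost, and so were the 10 smallest (adjusted p up to 0.266, for Akr1a1). With the mean of the 0.06, 0.641 and 6.41 mg/kg groups in place of vehicle, those of Me1, Psmb4, Psmb7, Psmd8, Afmid, Fbp1, Crym, Bcl2l1, Acsm5, Myc, Rnf128, Tmem134 and Ceacam1 were lost beside the cell division genes (up to 0.451, for Afmid).

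For several of these genes the levels at 64.1 mg/kg lay between vehicle and 641 mg/kg, as a description without a test. Gsr read 8.39 ± 0.22 (SD, n = 6) in vehicle, 8.70 ± 0.19 at 64.1 mg/kg and 9.36 ± 0.12 at 641 mg/kg. Blvrb read 9.92 ± 0.08, 10.18 ± 0.11 and 10.47 ± 0.08 in the same groups. Prodh read 9.05 ± 0.17, 8.76 ± 0.22 and 8.49 ± 0.11. For Mcm4 the level at 64.1 mg/kg was 6.45 ± 0.15, near the vehicle level of 6.37 ± 0.20, against 6.84 ± 0.03 at 641 mg/kg.

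Genes with several probe sets were read separately by each. Of 4525 such genes, 151 had a called probe set. All probe sets were called in 21 of them and only some in 130, and no gene had probe sets called in opposite directions. Each further probe set of a gene was paired with the brightest one. In 162 pairs 1 of 2 was called, and the other had the same sign in 133. The uncalled probe set had a mean under every array median in 49 of the 162 and an unadjusted p under 0.05 in 74. Both were called in 29 pairs, in the same direction in all 29.

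The difference between the 2 probe sets of a pair was tested on each array, and 7 of 6609 pairs (0.106%) were called different, with 518 at an unadjusted p under 0.05. In Srxn1 the brightest probe set rose 1.46-fold, from 7.77 ± 0.16 to 8.31 ± 0.16 (SD, n = 6). A dim one went from 2.85 ± 0.12 to 2.65 ± 0.12, and these folds differed 1.68-fold (limma adjusted p over pairs = 3.94e-05). A further Srxn1 probe set, at a mean of 6.03, was also called higher, with a log2 fold change of 0.58. It was not called different from the brightest (0.956 over pairs). In C8h11orf54 the folds differed 1.68-fold (7.74e-05), in Lmnb1, a nuclear lamina protein, 1.61-fold (0.0284), in Prodh 1.45-fold (0.00484) and in Fas 1.44-fold (0.0487). Further probe sets of Lmnb1 (mean 5.53, log2 fold change 0.29) and Fas (mean 4.06, 0.06) were not called, nor were their pairs (0.659 and 0.21). In all 5 genes the other probe set of the called pair was dim, at a mean of 2.75 to 4.17, under every array median. Its level did not pass the test between groups. The Lmnb1 rise itself (1.40-fold, adjusted p = 0.036) was lost in 8 fits (up to 0.113, without vehicle replicate 4).

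In Cd8a both probe sets of the called pair were dim, at means of 4.82 and 4.70, and their folds differed 1.39-fold (0.00702). A further Cd8a probe set, at a mean of 3.76, did not differ by the test (0.226). Tk1, thymidine kinase of dividing cells, differed between 2 probe sets of similar level. The brighter went from 6.76 ± 0.11 to 6.97 ± 0.11 (1.16-fold higher, adjusted p = 0.0962). The other went from 6.28 ± 0.21 to 6.80 ± 0.19 (1.43-fold higher, adjusted p = 2.46e-04). The folds differed 1.23-fold (0.0487 over pairs), so Tk1 is counted as uncalled in the DNA replication list although 1 of its probe sets was called.

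**Figure D5:**
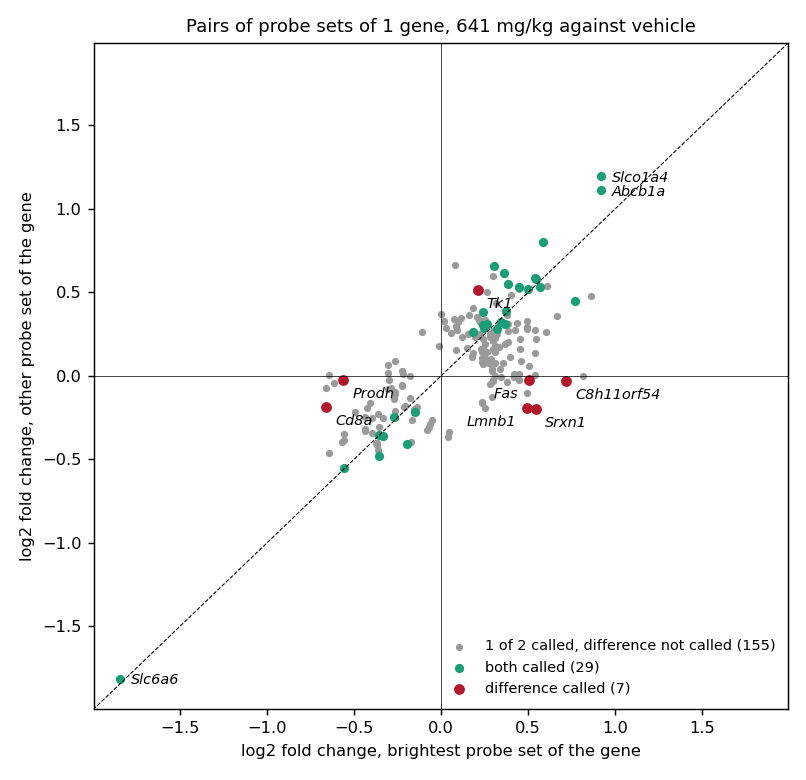
Each point is a pair of probe sets of 1 gene, with the log2 fold change of the brightest across and of the other up, and the dashed line marks equal change. Green points are the 29 pairs with both called, red points the 7 whose difference was called and grey points the other 155 with 1 of 2 called. Of the red points, 5 lie near or across the horizontal axis, far from the dashed line, while Tk1 lies above it.

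Restricting the pairs to those with both means of at least 6 left the same number of calls, 7, but with only Tk1 in common. The others were App, Fermt2, Tef, Slco1a4, Srsf1 and Nt5dc1. App, the amyloid precursor protein, read 1.2-fold higher by its brightest probe set (adjusted p = 0.125) and 1.41-fold by the other (adjusted p = 0.00184). Tef, a clock output factor, read 1.03-fold higher by the brightest (adjusted p = 0.879) and 1.29-fold lower by the other (adjusted p = 0.0375). Slco1a4 rose by both, 1.89-fold and 2.29-fold.

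A gene counted by its brightest probe set can hide a call, and 38 genes were called only by another probe set. Several belong to the lists above. Sqstm1, an autophagy adaptor, was not called by its brightest probe set (1.14-fold higher, adjusted p = 0.0868) but rose 1.32-fold by a second (adjusted p = 8.99e-05). The cytokinesis motor Kif23 rose 1.58-fold by its dim probe set, at a mean of 3.81 (adjusted p = 0.00318), and read 1.06-fold higher by the brighter. Sc5d and Mvk, of cholesterol synthesis, were each called higher by their dimmest probe set (1.26-fold each, adjusted p = 0.0408 and 0.0369), with all 3 probe sets above 0 in both. Slc25a15, the ornithine carrier of the urea cycle, was 1.15-fold lower by the called one (adjusted p = 0.0252) and below 0 by all 6. Glud1, which releases ammonia from glutamate, was 1.14-fold lower by its second probe set (adjusted p = 0.034) and 1.10-fold by its brightest (adjusted p = 0.116). These genes were picked after their values were seen.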

How the data were processed

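Affymetrix Rat 230 2.0 values of 36 liver arrays were used as deposited. They are log2 values that the authors made with RMA and affy, per the submitters' processing notes. Their versions and the genome build are not given in the sources used here. RMA corrects background, normalizes between arrays and summarises probes. Of 31099 probe sets 57 controls were left out. Symbols, updated through GRCr8 gene IDs, were single for 20826 probe sets, several for 436 and absent for 9780. The submitters' design text used a false discovery rate of 5% in R/maanova. The same linear model was fitted here over all 36 arrays with limma 3.58.1 (R 4.3.3), two-sided, with Benjamini-Hochberg adjustment over all probe sets, and fold changes carry 95% confidence intervals. The files hold no detection calls, and precision is limited by 6 arrays per group. The fit was tested on simulated data.

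Named genes were the 20 largest called rises and falls outside detoxification with all treated arrays on one side of the vehicle mean, called members of 48 lists (or the member with the smallest p), pairs called different and the 5 smallest called changes each way. Members and lists were chosen with earlier results of these data known. Same-numbered arrays of the 2 groups deviated together at correlations of -0.03 to 0.14, so the numbers were not taken as pairs. Alternatives covered the replicate block, centring, dim probe sets, the groups in the fit, the reference arrays, the variance model, a 1.2-fold minimum, gene means and each array left out.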

Additional observations from a re-analysis of the deposited data

Results flagged for a closer look

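Among the named genes 374 groups of 6 arrays were examined, and in 22 of them 1 array stood apart from the others by more than Dixon's 95% limit on the gap to its neighbour. About 1 in 20 independent groups would pass that limit by chance. These groups share the same 12 arrays, so the number to expect here was not tested. In vehicle, replicate 1 was the highest for Gstm1 (12.94), Pbk (4.926), Psmd8 (9.931) and Hfe (8.328) and the lowest for Glul (10.42). Replicate 2 was the highest for Coch (5.155) and the lowest for Psma1 (10.03). Replicate 3 was the lowest for Mtap (6.897) and Aox1 (10.59), replicate 4 the lowest for Pc (9.12) and replicate 5 the highest for the stellate cell marker Pdgfrb (5.634).

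At 641 mg/kg, replicate 2 was the highest for Srxn1 (8.629), Mdm2 (8.267) and Prdx3 (10.17) and the lowest for Fabp7 (11.06). Replicate 1 was the highest for Akr1b8 (5.413) and replicate 6 the highest for Zbtb41 (4.936). Replicate 6 was the lowest for Gclc (10.15) and Psmd14 (9.569), replicate 4 for Gstt1 (9.443), and replicate 3 for Psmb3 (10.2) and Tp53inp2 (9.856). For Gclc and Psmb3 the array that stood apart still lay above every vehicle array.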

How the results depend on the processing

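None of the 187 named genes, of which 167 were called, reversed in a fit that tested it. With the replicate number as a block, 339 probe sets were called higher, 161 lower and 5 pairs different, against 352, 159 and 7, and 10 named calls were lost. Replicates 1, 4 and 6 correlated best with their own number and the others did not. A fit on only the 2 groups gave 231 higher, 96 lower and 4 pairs, with 57 named calls lost. With the mean of the 0.06, 0.641 and 6.41 mg/kg groups as reference, 367 were higher, 244 lower and 15 pairs different, with 35 named calls lost. Limiting the test to probe sets with a mean of at least 6 in vehicle or at 641 mg/kg (11107 tested) gave 499 higher and 265 lower. A probe set could pass that limit only through the group where it was high, so these counts are not independent support. Centring gave 361 and 123, the intensity trend 391 and 189, and a minimum of 1.2-fold 273 and 118. Leaving out 1 array gave 228 (without 641 mg/kg replicate 2) to 367 higher, 104 (without vehicle replicate 2) to 141 lower, and 3 (without vehicle replicate 4) to 12 (without vehicle replicate 1) pairs. Of the 167 called named genes 99 kept their call in all 12 such fits and 68 lost it in at least 1. Gene means in place of the brightest probe set lost 14 calls. The cause of these shifts was not tested. Dim probe sets limit the mitosis, T cell and probe set results.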

Other observations

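Further called genes, picked after their values were seen, fall outside the lists. Aldehyde oxidase Aox1 read 10.59, 10.85 and 10.87 (lowest, median, highest) in vehicle and 11.32, 11.43 and 11.48 at 641 mg/kg, a rise of 1.53-fold with no overlap (limma adjusted p = 7.97e-09). Ddc, the decarboxylase that makes dopamine and serotonin, read 9.45, 9.59 and 9.94 against 10.09, 10.25 and 10.45, 1.52-fold higher with no overlap (adjusted p = 1.02e-04). The monoamine oxidases Maob and Maoa rose 1.22-fold and 1.21-fold (adjusted p = 0.00213 and 0.0251), the Maoa call being lost in 5 of the 12 fits that left out 1 array. The donors of conjugation differed in direction. Ugdh, which makes UDP-glucuronic acid, rose 1.28-fold (adjusted p = 9.62e-04), while Papss2, which makes the sulfate donor, was 1.29-fold lower (adjusted p = 0.0119; 0.0572 when only the 2 groups were fitted). Nampt, of NAD salvage, rose 1.34-fold (adjusted p = 0.0251) and carbonic anhydrase Car2 1.58-fold (adjusted p = 0.0228), and each call was lost in 4 fits. The Nampt call was also lost with the mean of the 0.06, 0.641 and 6.41 mg/kg groups in place of vehicle (0.116).

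The peroxisomal enzymes Phyh and Hacl1, which act in sequence on phytanic acid, were 1.21-fold and 1.41-fold lower (adjusted p = 0.0137 and 0.0173), and both calls were lost without 641 mg/kg replicate 5 (0.0505 and 0.0537). Pex7, the receptor that imports Phyh, was 1.19-fold higher (adjusted p = 0.0321), a call lost in 6 fits. Of cell cycle genes outside the lists, the kinetochore genes Zwint and Cenpk rose 1.45-fold and 1.39-fold (adjusted p = 1.42e-04 and 0.0114, the Cenpk call being lost at 0.264 with the mean of the 0.06, 0.641 and 6.41 mg/kg groups in place of vehicle) and the helicase Hells 1.26-fold (adjusted p = 0.0333, lost in 7 fits). The cyclin-dependent kinase inhibitor Cdkn2c rose too, 1.30-fold (adjusted p = 0.00988; 0.0614 with the mean of its probe sets). Egf was 1.25-fold lower (adjusted p = 0.02), fibronectin Fn1 1.16-fold (adjusted p = 0.0252), Txnip, an inhibitor of thioredoxin, 1.17-fold (adjusted p = 0.0409) and Tp53inp2, of autophagy, 1.16-fold (adjusted p = 0.0341). Those 4 calls were lost in 3, 5, 10 and 7 fits. With the reference that ended the Cenpk call, those of Pex7 (0.115), Hells (0.128), Fn1 (0.123), Txnip (0.426) and Tp53inp2 (0.0668) were also lost. When only the 2 groups were fitted, the same calls were lost as well (up to 0.177, for Tp53inp2). The transporter Slc22a23 was 1.34-fold lower (adjusted p = 0.0095), a call kept in all 12 fits but lost with the mean of its probe sets (0.159).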
